A study of Mus musculus with 11 samples.

Results

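The mitochondrial ribosomal protein genes were taken as all genes on the array whose annotated symbol begins with Mrpl or Mrps followed by a digit. There were 47 such genes among the 8106 genes measured, 34 with a symbol of the large subunit (Mrpl) and 13 with a symbol of the small subunit (Mrps). All 47 had enough values to be tested. They were read from 54 spots, 7 genes having 2 spots and 40 having 1, and 3 further spots annotated to a member together with another gene were left out.

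RNA from the ventricles of 12 TG1306/1R mice, all male, about 60 weeks old and on a C57/BL6 background, was compared on 11 cDNA arrays with 2 colours. The 4 wild-type mice (WT) were littermates without the transgene. The 8 carriers were all heterozygous, and were divided by heart shape into 4 with concentric hypertrophy (Hyp) and 4 with a dilated heart (Dil). The line overexpresses angiotensinogen in the heart, and the promoter of the transgene is not given in the sources used here. Carriers were sorted into Hyp and Dil in part by cardiac weight index and by hypertrophic markers, so the carrier groups were defined by phenotype and not by a treatment. The labelled weight index ran from 4.2 to 4.9 mg/g in WT, from 5.3 to 5.8 mg/g in Hyp and from 7.8 to 9.2 mg/g in Dil. The lowest Hyp value is that of Hyp3, which is labelled 5.3 mg/g on 1 array and 5.6 mg/g on another. The RNA came from both ventricles and the septum. Mice with the same number, called a set here, were hybridised against each other, which gave 4 arrays of Hyp with WT, 4 of Dil with Hyp and 3 of Dil with WT. The array of Dil with WT in set 2 was not analysed here, so the set 2 difference between them was obtained through Hyp2.

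All values are log2 ratios. Each value compares the same gene in different hearts, so neither the level of a gene nor the tissue markers of a sample can be read from them. Ratios were read as Cy5 over Cy3, a direction that is likely but stated by no source. On that reading Agt, the gene the line overexpresses, was higher than in WT by 2.15 ± 0.40 in Dil and by 2.09 ± 0.40 in Hyp (log2, standard error, n = 4 mice per group), and Nppb, a natriuretic peptide gene induced by cardiac load, was higher by 2.53 ± 0.32 and 1.02 ± 0.30. The opposite reading would turn every sign below. The spread of the ratios differed between arrays, from a scaled median absolute deviation of 0.115 to 0.354, and the arrays of WT3 with Dil3 (0.335) and of Dil4 with WT4 (0.354) were the widest. The column of WT1 with Hyp1 had displaced spots and was realigned. After this, 36 members had a value on all 11 arrays, and 11 lacked a value on that array alone.

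Mitochondria carry their own ribosome, which makes a small set of membrane proteins of the respiratory chain encoded by mitochondrial DNA. Its RNA is mitochondrial, but all of its proteins are encoded in the nucleus, made in the cytosol and imported. Some of them have counterparts in bacterial ribosomes and others are specific to mitochondria. The heart is among the tissues richest in mitochondria. In whole ventricular tissue, fewer cells that carry a transcript and less transcript per cell cannot be told apart.

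The promoters of the members are shown because factors that act on many nuclear genes for mitochondrial proteins, such as GABP of the ETS family, NRF1 and YY1, have known recognition motifs. RefSeq promoter windows (GRCm38.p6, 250 bases before to 50 bases after the start) were found for 42 of the 47 members. The windows below run from base -100 to base -1 before the start and read in the direction of transcription. Mrps36 is shown because its transcript passed the test in Dil against WT. The others were picked, for each motif, as the lowest in that comparison among members with a match in this window. The side of 0 on which they lay is therefore no result. Mrpl58, Mrpl27 and Mrpl51 (ETS) and Mrpl9 (NRF1) lay below 0. Mrpl52 (YY1, with an ETS match as well) and Mrpl36 (E-box) lay above 0. Capitals mark the letters CCGGAAG (ETS), CATGCGC (NRF1), AAGATGG (YY1) and CACGTG (E-box), on either strand, and in Mrpl9 matches on both strands overlap.
Mrps36 (chr13:100744660-100744759, minus strand): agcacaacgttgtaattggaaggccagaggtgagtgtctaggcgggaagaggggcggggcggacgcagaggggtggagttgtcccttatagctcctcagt
Mrpl58 (chr11:115403652-115403751, plus strand): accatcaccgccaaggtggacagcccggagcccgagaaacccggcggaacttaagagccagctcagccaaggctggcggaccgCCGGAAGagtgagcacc
Mrpl27 (chr11:94653691-94653790, plus strand): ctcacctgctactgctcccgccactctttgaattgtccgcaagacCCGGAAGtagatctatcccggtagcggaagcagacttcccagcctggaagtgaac
Mrpl51 (chr6:125192100-125192199, plus strand): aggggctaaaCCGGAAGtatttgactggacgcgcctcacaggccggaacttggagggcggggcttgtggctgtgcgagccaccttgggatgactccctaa
Mrpl9 (chr3:94443236-94443335, plus strand): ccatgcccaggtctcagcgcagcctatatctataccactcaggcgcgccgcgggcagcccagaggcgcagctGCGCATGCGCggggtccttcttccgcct
Mrpl52 (chr14:54426809-54426908, plus strand): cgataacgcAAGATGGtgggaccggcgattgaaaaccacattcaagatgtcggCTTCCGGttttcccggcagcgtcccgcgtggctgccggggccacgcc
Mrpl36 (chr13:73330909-73331008, plus strand): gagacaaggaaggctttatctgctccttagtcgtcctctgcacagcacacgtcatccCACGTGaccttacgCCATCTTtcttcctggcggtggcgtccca

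Over the 300-base windows, the ETS letters were present in 12 of the 42 members' promoters (28.6%), against 9.12% of the 27025 gene promoters in the table. The NRF1 letters were present in 5 (11.9%, against 4.04%), the YY1 letters in 10 (23.8%, against 6.48%) and the E-box in 3 (7.14%, against 7.24%). The share with a match was above that of all promoters for ETS, NRF1 and YY1 and near it for the E-box. In all, 23 members held at least 1 of the 4 motifs and 19 held none. The members' differences between Dil and WT, described next, had no lower median where a motif was present. The median was -0.10 for the 12 members with the ETS letters and -0.18 for the 30 without, -0.15 for the 5 with the NRF1 letters and -0.17 for the 37 without, and 0.01 for the 10 with the YY1 letters and -0.20 for the 32 without. These matches describe letters in a fixed window and no binding was measured.

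Mrps11 and Mrpl46 are neighbours that start from opposite strands, with 41 bases between their starts, shown because a gene of each subunit shares them.
Between the starts of Mrpl46 and Mrps11 (chr7:78783090-78783130, plus strand): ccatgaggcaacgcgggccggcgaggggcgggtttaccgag
Between Dil and WT, Mrpl46 differed by -0.17 ± 0.08 and Mrps11 by -0.08 ± 0.09 (log2, standard error, n = 4 mice per group), and neither passed the test.

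The comparison of dilated with wild-type hearts asked whether these transcripts differed at the stage of dilation. Most large subunit genes lay slightly lower in Dil and the small subunit genes did not lie to a common side. Of the 34 large subunit genes, 30 lay below 0, with a median difference of -0.18 (a log2 value), whereas 48.9% of all 12097 features lay below 0, with a median of 0.0029. Of the 13 small subunit genes, 7 lay below 0, with a median of -0.0025. Only Mrps35 and Mrps36 passed the test (limma, Benjamini-Hochberg adjusted p at most 0.05 over all features), both lower in Dil. This was 2 of the 47 members, while 1.15% of all features passed as lower and 2.15% passed in either direction.

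None of the 34 large subunit genes passed this threshold, and their smallest adjusted p was 0.0781. At an unadjusted p under 0.05, 14 of the 34 (41.2%) lay lower and 0 higher, while 8.15% of all features lay lower at that level. The small subunit had 4 of 13 lower and 1 higher at that level. The difference between WT and Dil was below 0 in all 4 sets for 14 of the 34 large subunit genes (41.2%), compared with 11.9% of all features, and above 0 in all 4 sets for none of them, compared with 11.1%. In the small subunit, 3 of 13 lay below 0 in all 4 sets and 1 lay above. The lower side thus recurred over the sets in a larger share of large subunit genes than of all features, although the single differences were small.

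**Figure D1:**
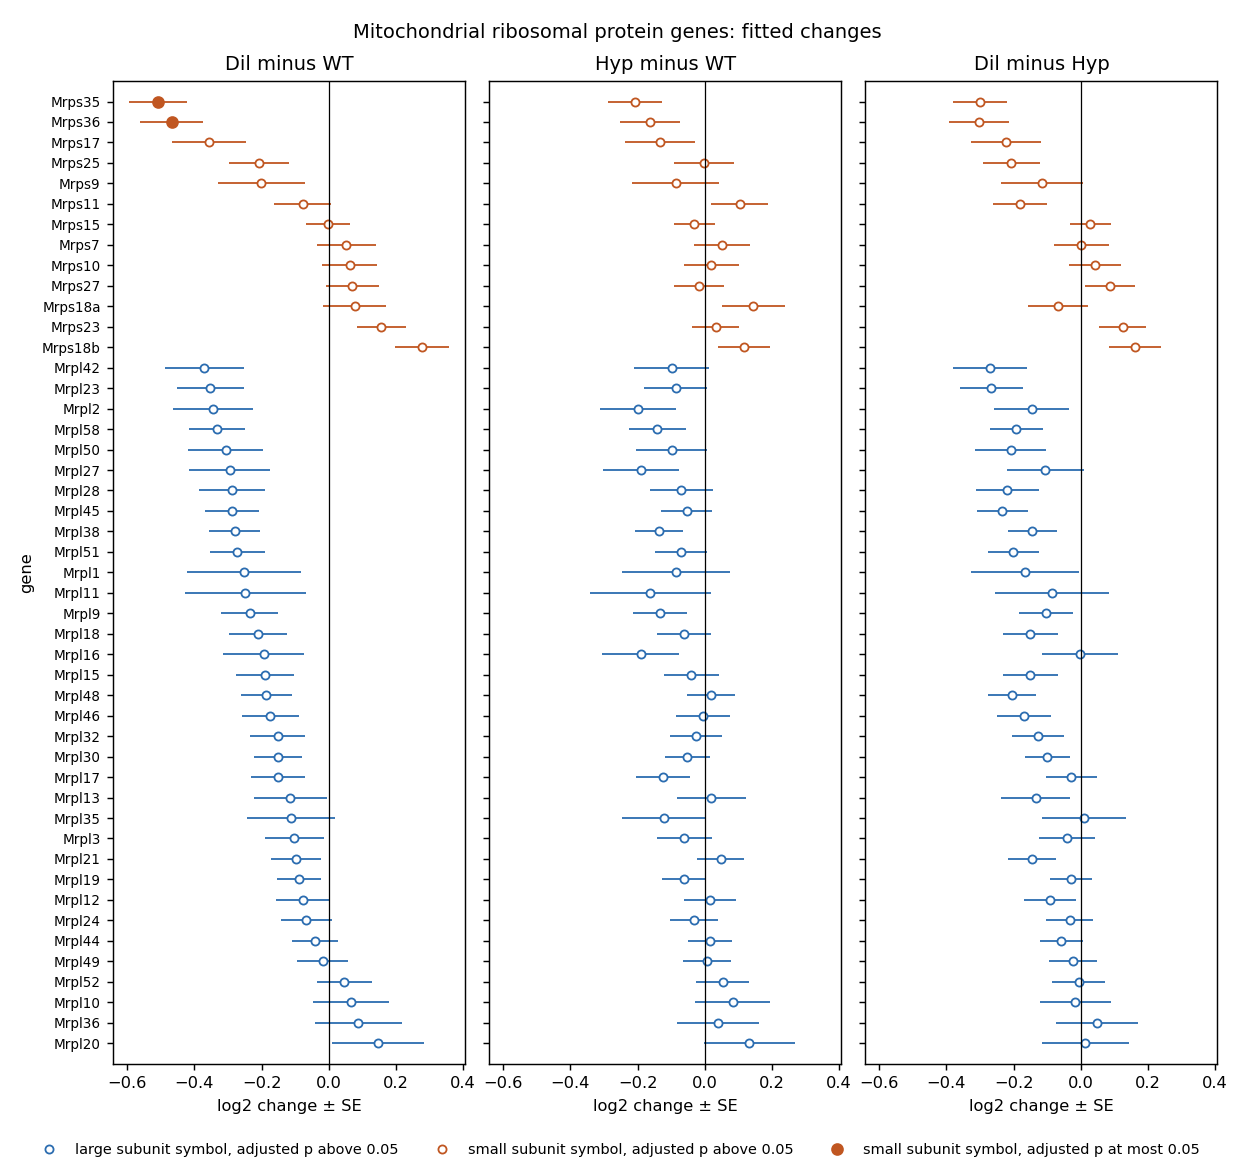
Fitted log2 change of each of the 47 members (circles) with its standard error (bars) in Dil minus WT, Hyp minus WT and Dil minus Hyp, large subunit symbols in blue and small subunit symbols in orange, with filled circles where the adjusted p was at most 0.05. In Dil minus WT 30 of the 34 large subunit genes sit left of 0, and the 2 filled circles, Mrps35 and Mrps36, are the lowest.

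The large subunit median was below 0 in every set, at -0.07 in set 1, -0.11 in set 2, -0.20 in set 3 and -0.25 in set 4. The small subunit medians were -0.01, 0.08, -0.16 and 0.06 in the same order. On the 3 arrays that carried Dil and WT together, the large subunit median was -0.08 (set 1) and -0.20 (set 3) with Dil in Cy5, and -0.24 (set 4) with Dil in Cy3. The large subunit thus lay below 0 on all 3 of these arrays, and its median dye effect was 0.01. Sets 3 and 4 gave the larger differences.

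**Figure D2:**
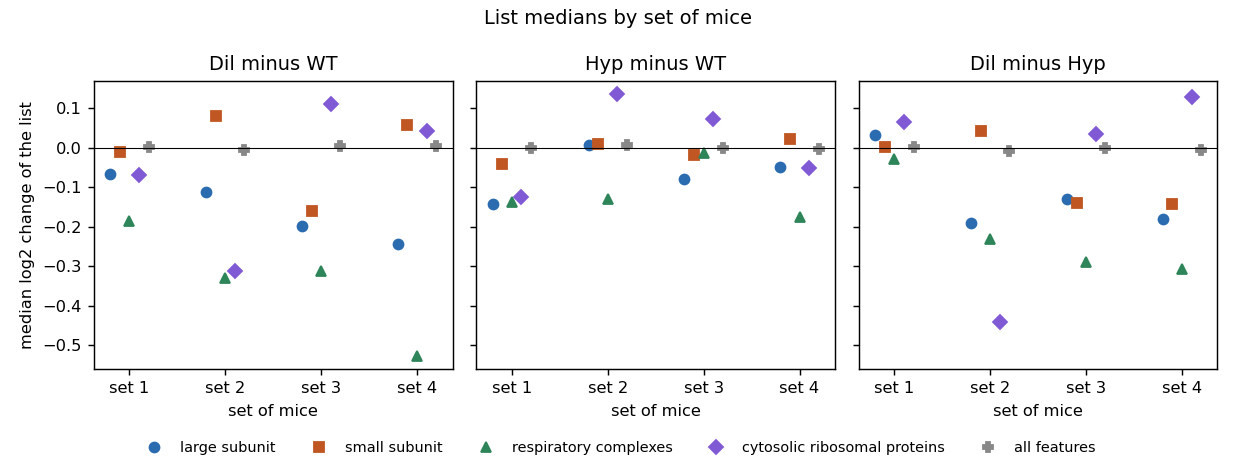
Median log2 change of the large subunit (34 genes), the small subunit (13), nuclear genes of the respiratory complexes (57), cytosolic ribosomal protein genes (68) and all features (12097) in each set of mice (horizontal axis), for the 3 comparisons. In Dil minus WT the large subunit goes from -0.07 in set 1 to -0.25 in set 4 and the respiratory complexes stay below it, while the small subunit and the cytosolic ribosomal proteins fall on both sides of 0.

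Mrps35 encodes a mitochondrion-specific protein of the small subunit. The ratio of Dil to WT on the 3 direct arrays was -0.20 in set 1, -0.20 in set 3 and -1.05 in set 4, all on the log2 scale. With all arrays used and the dye effect removed, the set differences were -0.39, -0.30, -0.43 and -0.80. Dil was below WT in all 4 sets, and set 4 differed most. Mrps35 fell by 29.7%, a log2 change of -0.51 ± 0.09 (n = 4 mice per group, limma adjusted p 0.0184). Mrps35 had a dye effect of 0.22 ± 0.05, with Cy5 the brighter. Its adjusted p was 0.0699 without a dye term, 0.11 with the set as a block, 0.12 on the direct arrays alone, 0.243 without set 3 and 0.188 without set 4.

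Mrps36 was first described as a protein of the small subunit, and its product is now placed with the oxoglutarate dehydrogenase complex of the citric acid cycle. The direct ratios of Dil to WT were -0.40 in set 1, -0.47 in set 3 and -0.74 in set 4 (log2). The set differences were -0.22, -0.41, -0.43 and -0.79, again all below 0 and again largest in set 4. Mrps36 fell by 27.7%, a log2 change of -0.47 ± 0.09 (limma adjusted p 0.0339). The adjusted p was 0.128 with the set as a block, 0.131 on the direct arrays alone, 0.0741 with the arrays scaled to the same spread, and 0.08, 0.304 and 0.244 without sets 2, 3 and 4. Both calls were lost without set 3, where 0 of the 12097 features passed, and without set 4, where 12 passed. Removing Mrps36 and moving Mrps18a, whose product sits in the large subunit, left a small subunit of 11 genes with 1 call and a median of -0.0025, and a large subunit of 35 genes with 0 calls and a median of -0.17.

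Among the other small subunit genes, Mrps17, with a bacterial counterpart that binds ribosomal RNA early in assembly, lay lower in Dil in all 4 sets (-0.19, -0.35, -0.32 and -0.56), with a fitted log2 change of -0.36 ± 0.11 (limma adjusted p 0.126). Mrps18b, a mammalian relative of a bacterial small subunit protein, was the only member above 0 in all 4 sets. Its set differences were 0.35, 0.47, 0.25 and 0.14, the direct ratios 0.28, 0.22 and 0.29, and the fitted change 0.28 ± 0.08 (limma adjusted p 0.112). Mrps23, which is specific to mitochondria, differed by 0.34, 0.33, -0.05 and 0.09 in sets 1 to 4 (fitted 0.16 ± 0.07, limma adjusted p 0.327). Mrps25 and Mrps9 lay lower (-0.21 ± 0.09 and -0.20 ± 0.13). Mrps7, Mrps9 and Mrps10, which build the head of the small subunit with others, gave fitted values of 0.05, -0.20 and 0.06. The small subunit thus held members on both sides of 0, from Mrps35 at -0.51 to Mrps18b at 0.28. The remaining 4, Mrps11, Mrps15, Mrps27 and Mrps18a, had fitted values between -0.08 and 0.08.

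**Figure D3:**
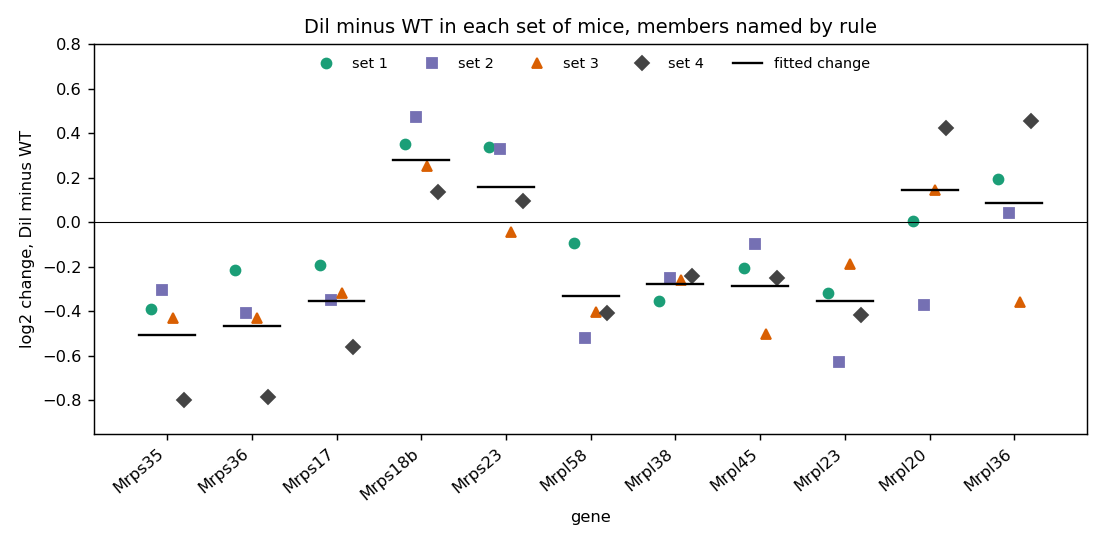
Log2 difference between Dil and WT in each of sets 1 to 4 (symbols) and the fitted change (bars) for the 11 members named by rule in this comparison. Mrps35 and Mrps36 lie below 0 in all 4 sets with set 4 near -0.8, Mrps18b lies above 0 in all 4, and Mrpl20 and Mrpl36 spread on both sides of 0.

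In the large subunit the lowest unadjusted p belonged to Mrpl58, which encodes a peptide release factor built into the ribosome that frees stalled chains. Its set differences were -0.10, -0.52, -0.40 and -0.41, with a fitted log2 change of -0.33 ± 0.08 (limma adjusted p 0.0781). Mrpl38, a protein of the central protuberance, gave -0.35, -0.25, -0.26 and -0.24 in sets 1 to 4, the narrowest spread of the members named by rule in this comparison, and a fitted change of -0.28 ± 0.08 (limma adjusted p 0.0891). On the direct arrays the Mrpl38 ratios were -0.51, -0.32 and -0.05, so this narrow spread appears after removal of its dye effect of -0.19.

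Genes for proteins around the exit tunnel came next by p. Mrpl45, which holds the ribosome to the inner membrane, gave -0.20, -0.10, -0.50 and -0.25 in sets 1 to 4 (fitted -0.29 ± 0.08, limma adjusted p 0.094). Mrpl23 gave -0.32, -0.63, -0.19 and -0.42 (fitted -0.35 ± 0.10, limma adjusted p 0.101). Both lay below 0 in all 4 sets and neither passed. Mrpl24, a further protein at the tunnel exit, lay close to 0 (-0.07 ± 0.07), so these neighbours in the ribosome had unlike values.

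Mrpl46 and Mrpl48, whose products also lie in the central protuberance, gave -0.17 ± 0.08 and -0.19 ± 0.08. Of the genes for the stalk where translation factors bind, Mrpl11 gave -0.25 ± 0.18, Mrpl12 gave -0.08 ± 0.08 and Mrpl10 gave 0.07 ± 0.11. Mrpl11 had the largest standard error of the 47 members, with set differences ranging from -0.76 in set 2 to 0.31 in set 3. Mrpl1, of the stalk on the other side of the subunit, gave -0.25 ± 0.17. Mrpl2 and Mrpl3, whose products reach towards the catalytic centre, gave -0.35 ± 0.12 and -0.10 ± 0.09. The lowest fitted value of the subunit was that of Mrpl42, a mitochondrion-specific protein, at -0.37 ± 0.12, and its set differences ran from 0.02 in set 1 to -0.82 in set 4.

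Only 4 large subunit genes lay above 0, Mrpl20, Mrpl36, Mrpl10 and Mrpl52. Mrpl20 gave 0.01, -0.37, 0.14 and 0.42 in sets 1 to 4 (fitted 0.15 ± 0.14), and Mrpl36 gave 0.19, 0.04, -0.36 and 0.45 (fitted 0.09 ± 0.13). Their sets fell on both sides of 0. Without set 4 the fitted value of Mrpl36 was -0.09.

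The 11 large subunit proteins specific to mitochondria had a median of -0.27, with 10 below 0 and 7 at an unadjusted p under 0.05. The 23 with a bacterial counterpart had a median of -0.15, with 20 below 0 and 7 at that level. In set 1 the order was the other way round, with medians of -0.02 and -0.09, and the difference between these classes was not tested. In the small subunit, the 8 genes with a bacterial counterpart had a median of 0.02 and the 4 mitochondrion-specific genes a median of -0.07.

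The spots of the members read from 2 spots each gave the mean direct ratio of Dil to WT the same sign in all 7. The spots of Mrps17 gave -0.55 and -0.33, those of Mrpl23 gave -0.32 and -0.29, those of Mrpl48 gave -0.34 and -0.18, those of Mrpl50 gave -0.33 and -0.46, and those of Mrpl15 gave -0.20 and -0.24. On single arrays the spots of 5 genes differed in sign. For Mrpl15 (set 1), Mrpl23 (set 3) and Mrpl48 (set 3) this was 1 array of 3, for Mrps27 (means 0.26 and 0.03) it was 2 and for Mrps7 (means 0.19 and 0.10) all 3. The direct ratio in a set was also set against the ratio obtained through Hyp. Over the members, as deposited, the correlation between these was 0.199 in set 1 (36 genes), 0.0459 in set 3 and 0.0531 in set 4 (47 genes each). With the fitted dye effect removed it was 0.310, 0.739 and 0.562. These routes share the Dil and WT mice, and the dye effect was estimated from the same arrays. Over all features it was 0.405, 0.0653 and 0.212 as deposited, and 0.376, 0.571 and 0.668 with the dye effect removed. The low values in sets 3 and 4 before dye correction were thus not particular to the members. In these sets the dye effect enters the direct ratio and the ratio through Hyp with opposite sign. A low correlation there therefore does not show that single-array ratios lack order from gene to gene.

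Nuclear genes of the respiratory complexes, which work beside the products of this ribosome, differed more. Of 57 genes, 12 fell in Dil relative to WT and 55 lay below 0, with a median of -0.34, and set medians of -0.19, -0.33, -0.31 and -0.53. Without set 2, 3 or 4, with the set as a block or on the direct arrays alone, 0 of these genes passed, and with the arrays scaled to the same spread 1 did, the median staying between -0.41 and -0.27. Their direct medians were -0.06 (set 1) and -0.14 (set 3) with Dil in Cy5 and -0.74 (set 4) with Dil in Cy3. Set 4 is the only direct array with Dil in Cy3, so dye and set cannot be told apart on the direct arrays alone. The fit over all arrays gave these genes a median dye effect of 0.15, and the set medians above have each gene's dye effect removed. The 68 cytosolic ribosomal protein genes had a median of -0.01 and 0 calls, with 0 lower and 2 higher at an unadjusted p under 0.05. Their set medians were -0.07, -0.31, 0.11 and 0.04. The large subunit of the mitochondrial ribosome lay between these lists in sets 3 and 4 (-0.20 and -0.25), but above both in set 2 (-0.11) and level with the cytosolic genes in set 1 (-0.07). The differences between the lists were not tested.

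**Figure D4:**
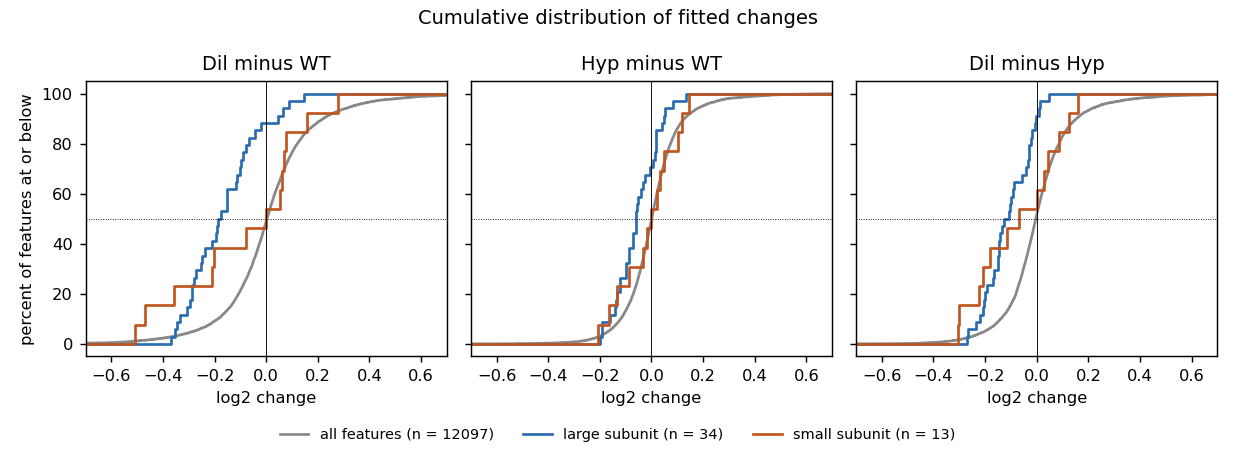
Cumulative percentage of features (vertical axis) at or below each fitted log2 change (horizontal axis) for the large subunit (34 genes), the small subunit (13) and all 12097 features, in the 3 comparisons. Over most of its range the large subunit curve lies left of all features in Dil minus WT (median -0.18 against 0.0029) and Dil minus Hyp (-0.12), and less so in Hyp minus WT (-0.06), and the small subunit curve crosses that of all features.

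Other genes of mitochondrial translation and upkeep were described by fixed lists. Of the 6 listed ribosomal proteins without an Mrp symbol 2 were measured, Dap3 (-0.11 ± 0.06) and Gadd45gip1 (-0.06 ± 0.06), and neither passed. Of 15 listed translation factors 7 were measured, with a median of -0.07 and 0 calls. Gfm1, the elongation factor that moves the ribosome along the messenger, came nearest (-0.39 ± 0.09, limma adjusted p 0.0538, set differences -0.33, -0.08, -0.57 and -0.42), and Oxa1l, which inserts the new proteins into the inner membrane, gave -0.28 ± 0.08 (adjusted p 0.104). Tufm and Tsfm, a further elongation factor and its exchange factor, gave -0.04 ± 0.22 and 0.08 ± 0.06.

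The tRNA synthetases and tRNA modifiers held the single gene of all these lists that passed. Of all features, 1.15% passed as lower and 2.15% in either direction. The lists held 2, 7, 16, 19, 9, 12 and 28 measured genes, so 1 call among them was no more than this background share. Hsd17b10, a subunit of the mitochondrial enzyme that trims tRNA precursors and also a dehydrogenase of branched-chain amino acid breakdown, fell (log2 change -0.53 ± 0.11, limma adjusted p 0.0412), with set differences of -0.40, -0.39, -0.77 and -0.58. The other 15 of the 16 measured did not pass, and the median of the list was -0.08. The Hsd17b10 call was lost with the set as a block, with the arrays scaled to the same spread, on the direct arrays alone, and without set 2, 3 or 4.

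Of 19 measured genes for ribosome assembly and mitochondrial ribosomal RNA, 17 lay below 0, with a median of -0.17 and 0 calls, close to the large subunit. They included Eral1, a chaperone of the small subunit RNA (-0.29 ± 0.08, adjusted p 0.0961), and Lrpprc, which stabilises mitochondrial messengers (-0.49 ± 0.15, adjusted p 0.135, from -0.05 in set 1 to -1.02 in set 4). The 9 measured genes for mitochondrial DNA had a median of -0.07, with Ssbp1, the single-strand binding protein, above 0 in all 4 sets (0.26 ± 0.08, adjusted p 0.154) and the helicase gene Twnk at -0.22 ± 0.09. The 28 measured genes for import and proteases had a median of -0.07.

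The 12 measured nuclear regulators had a median of 0.05 and 0 calls. Only 4 of them lay below 0, so they did not lie to the side of the large subunit. The highest was Esrra (0.20 ± 0.31). Ppargc1b, a coactivator of mitochondrial genes, gave -0.42 ± 0.17 (adjusted p 0.246), Ppargc1a gave -0.21 ± 0.17, Nrf1 gave 0.05 ± 0.05, and Gabpb2, a subunit of GABP, gave -0.11 ± 0.06.

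Markers of other cells of the heart were read in the same comparison. Of 13 fibroblast markers 11 were measured, 9 of them above 0, with a median of 0.35 in Dil relative to WT and set medians of -0.01, 0.04, 0.67 and 0.45. Sets 3 and 4, where the large subunit lay lowest, had the highest fibroblast marker medians, and 1 marker, Fstl1, rose (0.70 ± 0.14, limma adjusted p 0.0326). The markers were not alike. The 2 below 0 were Pdgfra (-0.20 ± 0.10, with -0.34 in set 4) and Lum (-0.05 ± 0.13), and Tcf21 lay near 0 (0.04 ± 0.06). Only 2 of 13 cardiomyocyte markers were measured, Ryr2 (-0.33 ± 0.12) and Ttn (0.08 ± 0.07), and neither passed. Medians were -0.01 for 6 of 11 endothelial markers, -0.04 for 4 of 8 smooth muscle markers and -0.06 for 6 of 7 adipocyte markers. The macrophage markers measured (2 of 11, median 0.20), the erythrocyte markers (2 of 5, median 0.22), the lymphocyte marker (1 of 8, 0.20) and the atrial marker (1 of 5, -0.13) were few. The part of other cells in the values of the ribosomal protein genes was not tested.

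In hypertrophic against wild-type hearts, no member differed past the threshold. Nor did Agt, the overexpressed gene (log2 change 2.09, limma adjusted p 0.871), or Nppb (1.02, limma adjusted p 0.9). The lack of calls in this comparison is therefore no evidence that the members were unchanged. Of the 34 large subunit genes 24 lay below 0, with a median of -0.06, and of the 13 small subunit genes 7 did, with a median of -0.0024. With limma, 0 of the 47 members passed, while 0% of all features passed, and at an unadjusted p under 0.05 there was 1 member, compared with 239 lower and 294 higher among all 12097 features. That member was Mrps35, with direct ratios of Hyp to WT of -0.09, -0.33, -0.25 and -0.07 in sets 1 to 4 and a fitted change of -0.21 ± 0.08 (limma adjusted p 0.999). All 4 direct ratios of Mrps35 were below 0, and those of sets 2 and 3, with Hyp in Cy3, lay lowest. With the dye effect removed this order turned, with set differences of -0.33, -0.11, -0.02 and -0.32.

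The set medians of the large subunit in this comparison were -0.14, 0.01, -0.08 and -0.05, so set 2 lay at 0. The next members by p were Mrpl38 (-0.14 ± 0.07), Mrps36 (-0.16 ± 0.09), Mrpl2 (-0.20 ± 0.11), Mrpl16 (-0.19 ± 0.11) and Mrpl58 (-0.14 ± 0.08). Of these, Mrpl2 had direct ratios below 0 on all 4 arrays (-0.07, -0.32, -0.35 and -0.32), as had Mrpl16 (-0.12, -0.33, -0.28 and -0.09), and Mrpl58 had them on all 3 arrays with a value (-0.11, -0.18 and -0.30). With its dye effect of 0.24 removed, Mrpl16 gave -0.45, -0.09, 0.10 and -0.39 in sets 1 to 4. Mrpl2 and Mrpl58 stayed below 0 in all 4 sets after this step. On the other side of 0, Mrps18a gave 0.14 ± 0.09, Mrpl20 0.13 ± 0.14, Mrps18b 0.12 ± 0.08 and Mrpl10 0.08 ± 0.11. The Mrps36 ratios were near 0 in sets 1 to 3 (-0.02, 0.05 and -0.05) and -0.51 in set 4, so its difference rested on set 4.

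Between dilated and hypertrophic hearts, where all mice carried the transgene, most large subunit genes again lay lower in Dil. Of the 34, 31 lay below 0, with a median of -0.12, and 11 of 11 mitochondrion-specific genes did, with a median of -0.19. The small subunit had 7 of 13 below 0 and a median of -0.07. With limma, 0 of the 47 members passed, while 0.165% of all features did and 0.0248% passed as lower. At an unadjusted p under 0.05, 11 members lay lower and 0 higher, 7 in the large and 4 in the small subunit, while 4.37% of all features lay lower and 5.27% higher at that level. The Dil against WT difference is the sum of this comparison and the preceding one, and the 3 share mice and arrays, so they are not separate evidence.

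The set medians of the large subunit were 0.03 in set 1, -0.19 in set 2, -0.13 in set 3 and -0.18 in set 4. Set 1 alone did not lie lower, with 13 of 34 genes below 0, compared with 28, 28 and 29 in the other sets. Mrps35 gave direct ratios of Dil to Hyp of -0.26, 0.03, -0.65 and -0.23 (fitted -0.30 ± 0.08, limma adjusted p 0.208). Mrps36 gave 0.03, -0.46, -0.29 and -0.37 (fitted -0.30 ± 0.09, limma adjusted p 0.257). Each had a direct ratio near 0 in 1 set and direct ratios below 0 in the others. With the dye effect removed, the set differences of Mrps35 were -0.06, -0.19, -0.42 and -0.48. Those of Mrps36 were -0.15, -0.39, -0.33 and -0.32, so both genes lay below 0 in all 4 sets.

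Mrpl48 was below 0 on all 4 direct arrays, at -0.06, -0.21, -0.10 and -0.25 (fitted -0.20 ± 0.07, limma adjusted p 0.342). The direct ratios of the tunnel genes Mrpl45 (0.14, -0.22, -0.44 and -0.33) and Mrpl23 (0.08, -0.66, -0.29 and -0.31) lay below 0 in sets 2 to 4 and above it in set 1. With the dye effect removed, their set 1 differences were -0.02 and -0.04, and both genes lay below 0 in all 4 sets. Their fitted changes were -0.23 ± 0.08 and -0.27 ± 0.09. Mrpl51, a mitochondrion-specific protein, gave -0.20 ± 0.08, and the small subunit genes Mrps25 and Mrps11 gave -0.21 ± 0.08 and -0.18 ± 0.08. Among the 9 members above 0 were Mrps18b (0.16 ± 0.08), Mrps23 (0.12 ± 0.07), Mrpl36 (0.05 ± 0.12) and Mrpl20 (0.01 ± 0.13). Mrps18b was thus the member that lay highest in Dil against both other groups.

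Across the 11 arrays, a large subunit gene followed the mean of the other large subunit genes with a median correlation of 0.667 (28 genes with all values, from -0.441 to 0.900). A small subunit gene followed the mean of the others with a median of -0.0985 (8 genes, from -0.468 to 0.669). These arrays share mice and dye effects, and the correlations are given as a description. The genes outside the list with the highest correlation with the large subunit mean over the 11 arrays were Ube2e3 (0.967), Nup37 (0.966), Mettl23 (0.965), Micos10 (0.958) and Adi1 (0.952). For the small subunit mean they were Apoo (0.920), Noa1 (0.916), Rmnd1 (0.914), Mmgt1 (0.911) and Pigc (0.907). None of these 10 genes passed the test in Dil against WT, where Pigc came nearest (log2 change -0.69 ± 0.16, limma adjusted p 0.0502).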

How the data were processed

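The values are the deposited log2 ratios of the 2 dyes, with 1 value per spot and array, in the authors' value table. Per the labels, the RNA was copied into cDNA labelled with Cy3 or Cy5 and hybridised to printed cDNA clones. No source used here names the scanner or how background and normalization were handled. The base of the logarithm was taken as 2. Spot intensities were not used, which leaves the depth behind each ratio unknown. Precision is therefore known only from the fit over the arrays. Of 17664 spots, 12563 carried 1 gene symbol in the platform annotation. Spots of a gene were averaged, and 12097 features with values on at least 9 of 11 arrays were tested.

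On the array of WT1 with Hyp1, 40 groups of 12 positions were displaced by 8 blocks and were moved back, which raised its correlation with the set 1 ratio obtained from its remaining arrays from 0.492 to 0.810. This step followed from the data. The shift of each group was picked as the one with the best correlation, so this rise is no separate test of the step. Between spots of 1 gene on this array, the correlation was 0.00499 as deposited (4312 pairs) and 0.116 realigned (2817 pairs). On the other arrays it ran from 0.163 (WT4 with Hyp4) to 0.467 (Hyp4 with Dil4), so the realigned array stayed below them.

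Each feature was fitted in R 4.3.3 by generalised least squares with terms for Dil, Hyp and the dye, and with mice as random effects sharing a ratio of mouse to residual variance of 0.303. Variances were moderated with limma 3.58.1 (3.26 prior degrees of freedom). The Benjamini-Hochberg adjustment ran over all 12097 features, and an adjusted p of at most 0.05 counted as passed. Errors are standard errors of this fit, and residual degrees of freedom (8) count arrays. Set values are least squares solutions within a set of mice. The procedure was tested on simulated data. Tables were made with Python 3.11.15 (pandas 2.3.3) and figures with matplotlib 3.10.9.

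Named members were those called, the 4 of each subunit with the smallest p in each comparison, and the 2 farthest on the other side of 0 from the subunit median. Members beyond this rule were named to cover the subunit, with their values known. The members and gene lists were chosen with earlier results of these data known. Alternatives left out a set or an array, changed the dye term, the spread of arrays, the treatment of mice, spots and moderation, used direct arrays alone or took the set as a block.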

Additional observations from a re-analysis of the deposited data

Results flagged for a closer look

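The set values of the members named by rule and of the subunit medians were examined in 39 groups of 4, and 1 had a value far from the others. For Mrpl38 in Dil against WT, set 1 gave -0.35, while sets 2 to 4 lay between -0.26 and -0.24. The gap was 0.835 of the whole range, just above Dixon's critical value for 4 samples. Chance gives such a gap in about 1 of 20 groups, and all 4 values were below 0.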

How the results depend on the processing

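Without sets of mice in turn, the features called between Dil and WT (260) numbered 0 (without set 3) to 121 (without set 1), the small subunit members called (2) numbered 0 to 2, and the listed genes of mitochondrial translation called (1) numbered 0 to 1. Between Dil and Hyp the features called (20) numbered 0 to 15. With the replicate block, in which the set values are tested, these counts were 6, 0, 0 and 0. The sets are mice hybridised together, and the labels do not say that they share more than that. With direct arrays alone they were 7, 0, 0 and 0. With the spread of the arrays equalised, 99 features, 1 small subunit member and 0 listed genes passed in Dil against WT. With the array of WT1 with Hyp1 left out, 159 features passed in Dil against WT and 7 in Dil against Hyp, and with its column as deposited 41 passed in the latter. Without a dye term 1 small subunit member, 2 listed genes and 43 features (Dil against Hyp) passed, and with arrays treated as independent 2 listed genes and 52 features. Without sets in turn, the small subunit median in Hyp against WT ran from -0.0308 (without set 4) to 0.0167. No large subunit member was called under any alternative named here or in the methods. Signs turned, also without sets in turn, in Mrpl36 (Dil against WT from -0.0863 without set 4 to 0.264, Dil against Hyp from -0.0296 without set 4 to 0.124, and -0.0251 without set 2), Mrpl10 (Hyp against WT from -0.0877 without set 4 to 0.224) and Mrpl20 (Dil against Hyp from -0.0738 without set 1 to 0.162, and -0.0340 without set 3). On direct arrays alone Mrpl36 gave -0.0021 in Dil against Hyp. The causes were not tested.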
